A study of Mus musculus with 6 samples.

Results

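The regions described here are 377 retained introns, or stretches of neighbouring retained introns, that were listed in every one of 6 splicing catalogues of the mouse nucleus accumbens. They make up 1.51% of the 24972 distinct intron retention events in the series and lie in 308 of 15939 listed genes (1.93%). An event was chosen when its type code was a retention code (IR_ON, XIR_ON, MIR_ON or XMIR_ON) and when the same code, gene, chromosome, strand and outer exon boundaries appeared in all 6 files. Listing in every library was therefore the choice itself and is not a result, and these events are called constant below. The nucleus accumbens, a ventral striatal region of the reward circuit, came from C57BL/6N mice that had received saline or morphine, an opioid receptor agonist, by injection in conditioned place preference training, in which an animal learns to associate a chamber with a drug. Each group had 3 libraries of total RNA, numbered 1, 2 and 3 for saline and 4, 5 and 6 for morphine, from 6 mice per group. Neither the age of the mice nor how they map to the libraries is given in the sources used here, so p-values measure only the spread between libraries, which may be partly technical.

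Introns are removed from most messenger RNA precursors by the spliceosome, and an intron left in a finished exon is called retained. Some retained introns stay in polyadenylated transcripts that are held in the nucleus and spliced later, and these are known as detained introns. Others are exported and often bring a premature stop codon, which marks the messenger for nonsense-mediated decay. Genes for splicing factors are known for such introns, which several of them use to limit their own output.

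The catalogues list structures, not amounts. Each retention event pairs an assembled exon that runs through 1 or more introns with a spliced form of the same gene, and the region runs from the last exon base before the kept introns to the first exon base after them. In codes with an X, the outer ends of the retaining and the spliced form differ. Read depth is unknown, so an event missing from a catalogue may still have been present in the RNA. The saline libraries listed 7425, 5074 and 5010 retention events and the morphine libraries 7523, 6361 and 7018. The 20 medium spiny neuron marker genes on the list used, which mark the principal neuron of the region, were all listed in every library. So were all 12 astrocyte and all 12 microglia markers, and 12938 of the 15939 listed genes. This checks the labelled tissue only by presence and does not set it apart from others.

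The splice sites of the kept introns in Clk and SR genes carry much of what is described below, so they are shown first. Clk1 and Clk4 encode kinases that phosphorylate SR proteins, the serine- and arginine-rich splicing factors, of which Srsf5 and Srsf7 are members. In each line, 3 exon bases and the intron's first 12 bases (5′ site) or the intron's last 23 bases and 3 exon bases (3′ site) are given 5′ to 3′ on the transcript's strand, with the intron's terminal dinucleotide in capitals. The letters come from the GENCODE M21 transcripts of mouse build GRCm38, which hold an intron only where an annotated exon covers it.
Clk1 intron 3 5′ site (chr1:58421071-58421085, minus strand): gggGTatgagtgcct
Clk1 intron 3 3′ site (chr1:58420209-58420234, minus strand): tgccgcccacttgacgtgtccAGaag
Clk1 intron 4 5′ site (chr1:58420109-58420123, minus strand): gatGTatagaatatt
Clk1 intron 4 3′ site (chr1:58419731-58419756, minus strand): taataattattcctcttttttAGatg
Clk4 intron 3 5′ site (chr11:51272020-51272034, plus strand): tcgGTatgagtggtt
Clk4 intron 3 3′ site (chr11:51273055-51273080, plus strand): gtgctgcccacttgccgttccAGaag
Clk4 intron 4 5′ site (chr11:51273166-51273180, plus strand): gatGTatagaatatt
Clk4 intron 4 3′ site (chr11:51273537-51273562, plus strand): tctctttctctcccttactttAGatg
Snrnp48 intron 6 5′ site (chr13:38217493-38217507, plus strand): gagGCaagtttcaca
Snrnp48 intron 6 3′ site (chr13:38220665-38220690, plus strand): cattggtttttccttcttccaAGgtg
Srsf5 intron 5 5′ site (chr12:80947863-80947877, plus strand): cagGTttgttgaaat
Srsf5 intron 5 3′ site (chr12:80949072-80949097, plus strand): taacataattgtcttgtgttaAGgat
Srsf7 intron 3 5′ site (chr17:80205250-80205264, minus strand): cagGTatttaattaa
Srsf7 intron 3 3′ site (chr17:80204385-80204410, minus strand): tatttttctaacttaaaaaatAGgtc

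At intron 4 of Clk1 and Clk4 the 15 bases of the 5′ splice site were the same at all 15 positions, and at intron 3 they were the same at 11 of 15. These counts compare the lines position by position with no gap. Counted so, the 3′ splice sites shared 14 of 26 bases at intron 4 and 13 of 26 at intron 3, and moving the intron 3 lines by 1 base against each other raised the match to 17 of 25. Snrnp48, which encodes a protein of the minor spliceosome, had a kept intron that starts with GC rather than GT.

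Another kept intron has the ends AT and AC, and it lies in Tcea2, which encodes a transcription elongation factor. The sequence TATCCTT at intron positions 2 to 8, the 5′ splice site known from introns of the minor spliceosome, is in capitals in the first line, and the terminal dinucleotide in the second.
Tcea2 intron 6 first 30 bases (chr2:181686247-181686276, plus strand): aTATCCTTtgtacagggtatatagggtcaa
Tcea2 intron 6 last 30 bases (chr2:181686568-181686597, plus strand): aacctcaggtgggtccttaaacacctgcAC

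TATCCTT was searched at those positions on the transcript's strand only. It was found in 1 of the 211 constant events whose intron sequence could be read, in 5 of 2055 events listed in 1 library and in 4 of 1437 events listed in 2 to 5 libraries.

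The shortest kept introns can be given whole, with the first and last 2 bases in capitals. Those of Rgs11 (a regulator of G-protein signalling), Zfp276 (a zinc finger protein), Mdp1 (a phosphatase) and Npr2 (a natriuretic peptide receptor) start with GT and end with AG. The stretch in Sfr1, which encodes a DNA recombination factor, starts with CT and ends with AC. Introns of Hnrnpl and Hnrnpm, which encode heterogeneous nuclear ribonucleoproteins, and a stretch of Tro, which encodes trophinin, were added after their values were seen, because they read through in frame or hold a repeat.
Sfr1 intron (chr19:47732783-47732830, plus strand): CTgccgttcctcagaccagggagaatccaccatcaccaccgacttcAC
Rgs11 intron (chr17:26203513-26203577, plus strand): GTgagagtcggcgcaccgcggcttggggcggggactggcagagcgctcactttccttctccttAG
Zfp276 intron (chr8:123264927-123264994, plus strand): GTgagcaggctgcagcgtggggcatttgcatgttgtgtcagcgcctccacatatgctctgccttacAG
Mdp1 intron (chr14:55660099-55660167, minus strand): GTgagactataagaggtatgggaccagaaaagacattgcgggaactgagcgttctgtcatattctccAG
Npr2 intron (chr4:43650324-43650393, plus strand): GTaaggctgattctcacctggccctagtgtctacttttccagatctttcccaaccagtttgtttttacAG
Hnrnpl intron (chr7:28818533-28818643, plus strand): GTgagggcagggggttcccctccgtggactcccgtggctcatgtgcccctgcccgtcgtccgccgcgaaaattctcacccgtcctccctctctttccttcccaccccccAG
Hnrnpm intron (chr17:33666530-33666646, minus strand): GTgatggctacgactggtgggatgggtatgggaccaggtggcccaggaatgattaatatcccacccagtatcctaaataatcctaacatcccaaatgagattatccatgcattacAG
Tro intron (chrX:150648491-150648592, minus strand): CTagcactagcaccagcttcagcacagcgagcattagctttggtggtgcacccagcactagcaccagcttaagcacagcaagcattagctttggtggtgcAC

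Of the 211 constant events with readable introns, 203 (96.2%) had GT and AG at every kept intron. This share was 92.4% in readable events listed in 1 library and 95.2% in those listed in 2 to 5. The remaining constant events were 2 with GC and AG (Snrnp48 and Brd9), 1 with AT and AC (Tcea2) and 5 with CT and AC. Sequence could not be read for the other events because no annotated exon covers them. Among readable events, 88 (41.7%) had a 5′ site starting GTAAG or GTGAG, against 44% of those listed in 1 library. The median GC content of the kept introns was 53.9%, against 51.4% both in events listed in 1 library and in those listed in 2 to 5. The readable introns are those inside annotated exons, so these shares do not describe the remaining 166 events.

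The 5 events with CT and AC ends were XIR_ON or XMIR_ON events, and none of their introns is annotated. CT and AC are what a GT and AG intron shows when it is read on the opposite strand. They were the stretch in Sfr1, a pair in Tro, and 1 each in Zfp748 and 2010300C02Rik. For 4 of these the retaining exon is an annotated protein-coding exon. The one in Zfp748 also lies inside an annotated exon, but no annotated exon has the outer ends of its retaining exon. Repeats were searched over each stretch with any exon between its kept introns and 3 exon bases on each side. Counted so, the single Tro stretch of 102 bases repeats with a period of 51 bases at 94.7% identity. The stretch in 2010300C02Rik, which includes an exon, repeats with a period of 126 bases at 97.7% identity. In Sfr1 the best period, 18 bases, gave 38.9% identity. By their ends and annotation these 5 stretches go against the name retained intron, and so does the strand of 1 event in Tnpo2, listed opposite to its gene. They stay in the counts below as the choice listed them.

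Most constant events kept a single intron, and it was usually an annotated one. A single intron was kept in 331 events (87.8%), 2 introns in 43 and 3 or more in 3 events, in Dus3l, Hdhd5 and Ppox. The single-intron share was 73.2% for events listed in 1 library and 80.5% for those listed in 5. All kept introns are annotated introns in 361 constant events (95.8%), close to the 92.4% of events listed in 1 library and 95.1% of those listed in 5. By code, 310 events were IR_ON, 41 were MIR_ON, 21 were XIR_ON and 5 were XMIR_ON. The same stretch can appear under different codes or outer boundaries, so the 377 events cover 363 distinct stretches and 395 distinct introns. For 368 events at least 1 set of kept introns was listed in all 6 libraries, and for 9 no set was. Only 250 events (66.3%) had a single set of kept introns over all libraries. The others had further sets, because the spliced partner differed. Lengths, frames and sequences describe 1 set per event, the one listed in the most libraries, with ties going to the fewest bases.

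The annotation already held the retaining exon of 171 constant events (45.4%). This share was 3.86% for events listed in 1 library, 7.21% in 2, 10.3% in 3, 16.2% in 4 and 24.9% in 5. The exon belonged to a transcript of type retained intron in 111 events, to a protein-coding transcript in 49, to a nonsense-mediated decay transcript in 7 and to another type in 4, and 206 were not annotated. Just outside the choice, 493 events were listed in 5 libraries, and the single library without them was saline 1, 2 or 3 for 68, 109 and 105 events and morphine 4, 5 or 6 for 58, 93 and 60.

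Constant events kept fewer bases than the others. They kept a median of 548 intron bases (quartiles 147 and 1649, range 48 to 31435), against 929 bases for events listed in 1 library and 914 for those listed in 5. Under 300 bases were kept by 150 constant events (39.8%), and by 24.8% and 26.4% of those other sets. Over 3000 bases were kept by 45 constant events (11.9%), against 18% of events listed in 1 library. The step in length thus lies between 5 and 6 libraries, where the median moved from 914 to 548, while it stayed between 880 and 994 from 1 to 5 libraries. No test was run over regions, which are not replicates of a condition.

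**Figure D1:**
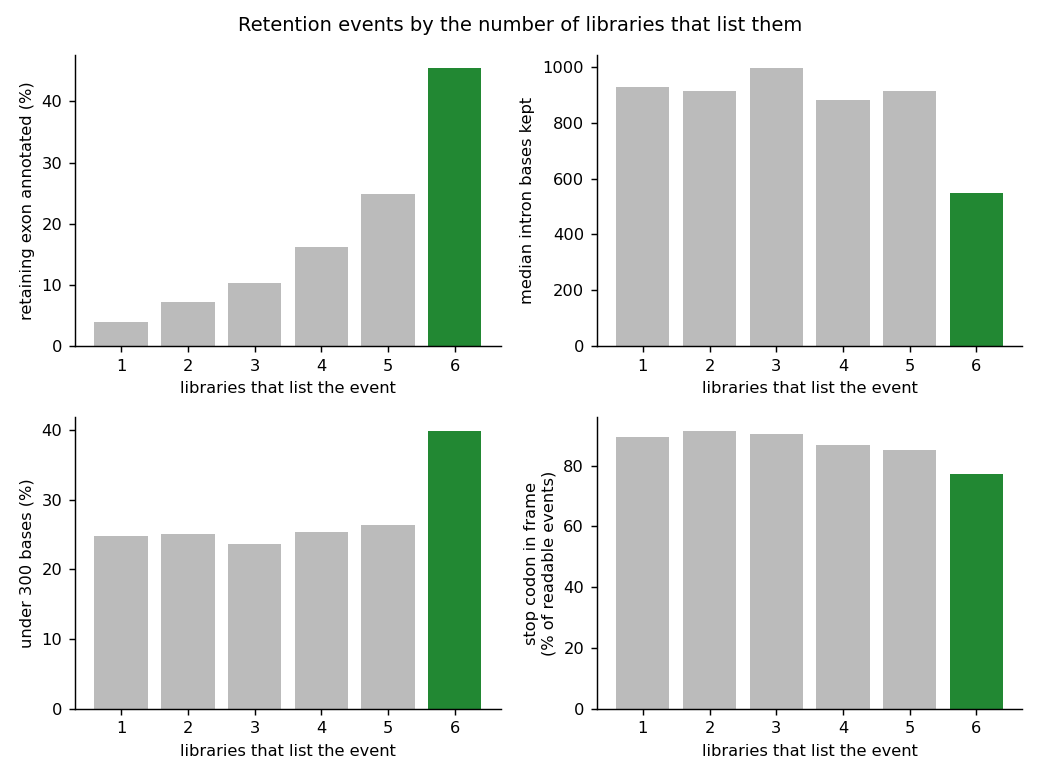
Bars show retention events grouped by the number of libraries that list them (x axis), with constant events in green. The panels give the percent whose retaining exon is annotated, the median intron bases kept, the percent under 300 bases and the percent of readable events with an in-frame stop codon. The annotated share climbs from 3.86% to 45.4%, while the median length falls at 6 libraries to 548 bases.

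Length went with annotation. Events in protein-coding exons kept a median of 108 bases (n = 49) and those in exons of type retained intron 281 bases (n = 111). Those whose retaining exon is not annotated kept 1113 bases (n = 206). The 5 shortest stretches were in Sfr1 (48 bases), Rgs11 (65), Zfp276 (68), Mdp1 (69) and Npr2 (70), and Plekhj1 also had one of 70 bases. The 5 longest were in Gria4 with 31435 bases, Trim9, a neuronal ubiquitin ligase, with 12802, Chka, choline kinase alpha, with 10975, Far1, a fatty acyl-CoA reductase, with 9201, and Dync1i2, a dynein intermediate chain, with 9181. None of these long stretches has an annotated retaining exon.

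**Figure D2:**
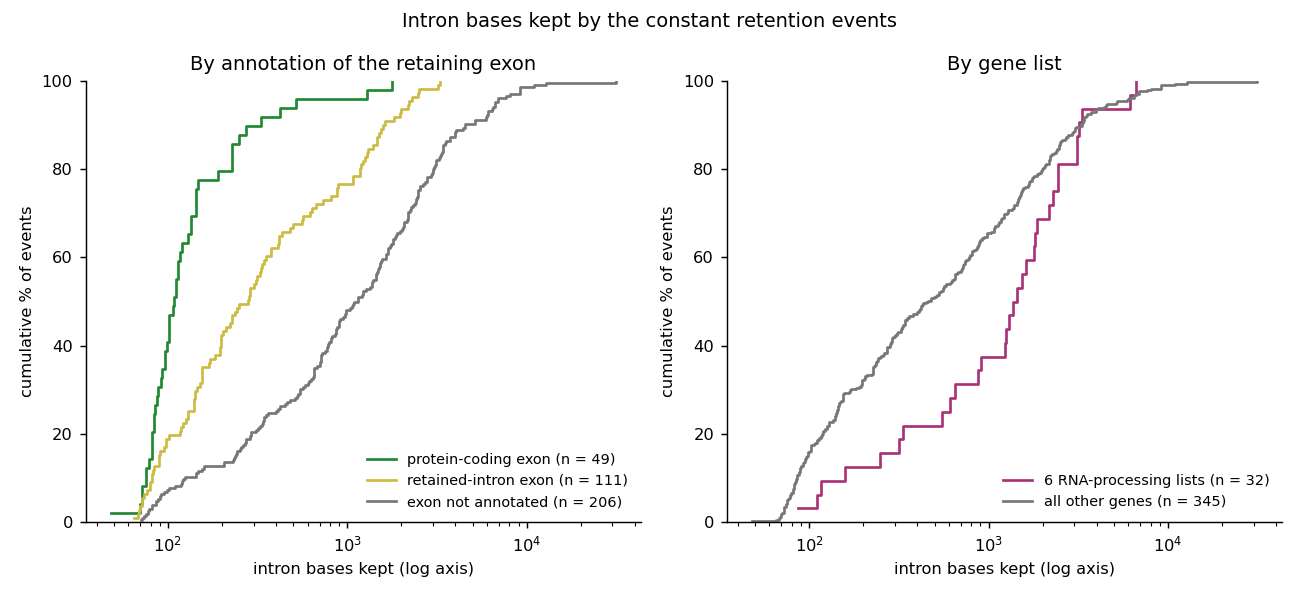
Lines give the cumulative percent of constant events (y axis) against the intron bases kept (x axis, log scale). On the left events are split by the annotation of the retaining exon, with medians of 108, 281 and 1113 bases. On the right the 32 events in genes of the 6 RNA-processing lists (median 1412 bases) are set against the 345 in other genes (median 459 bases).

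Kept introns lay mostly inside the coding region, as they did in the other retention events. Of the 354 constant events whose introns belong to an annotated coding transcript, 345 (97.5%) lay within the coding region and 9 in the 5′ untranslated region. The share within the coding region was 98.7% for events listed in 1 library and 98.4% for those listed in 2 to 5. The first intron was kept in 2 events and the last in none. Among 15776 such events listed in 1 library, 157 kept the first intron and 204 the last, so both positions were rare there too.

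Reading on from the upstream exon in its annotated frame, 148 of 192 readable constant events (77.1%) met a stop codon inside the kept stretch. The first stop lay at a median of 40.5 bases from the start of the intron (range 2 to 311). The share was 89.3% among events listed in 1 library and 85.2% among those listed in 5. It differed between kinds of retaining exon. A stop was met in 99 of 109 events in exons of type retained intron, in all 7 of type nonsense-mediated decay and in 33 of 34 without annotation, but in 5 of 38 in protein-coding exons. The annotated types take the reading frame into account, so type and stop are not independent measures. Readable events in protein-coding exons were also shorter, with a median of 106 bases against 225 over all readable events. Only 192 of the 377 events could be read, all inside annotated exons. The 34 readable events without annotation are thus a part of 206, and these shares do not describe the rest.

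Among the 44 events without a stop, 30 kept a number of bases that is a multiple of 3. Examples, chosen after their values were seen, were 111 bases in Hnrnpl, 117 in Hnrnpm, 87 in Fxr1, an RNA-binding protein of the fragile X family, and 84 in Chd4, the ATPase of a nucleosome remodelling complex. Braf, a kinase of the MAP kinase pathway, kept 99 bases and Adgrl1, an adhesion receptor for latrotoxin, kept 135. These stretches add codons to the open reading frame as annotated. Over all single introns inside coding regions, 113 of 302 (37.4%) had a length that is a multiple of 3, against 33.4% in events listed in 1 library.

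Splicing and other RNA-processing genes made up a visible part of the set. In 6 lists together (Clk kinases, SR proteins, hnRNP proteins, spliceosome and splicing cofactors, minor spliceosome, and neuronal and other RNA-binding regulators), 26 of 166 listed genes (15.7%) had a constant event, with 32 events in all, against 1.93% of all listed genes. Of the genes with any retention event, 24.1% of those on these lists had a constant one, against 6.28% of all 4907. Their kept stretches had a median of 1412 bases and those in other genes 459. The median GC content was 36.6% in the 17 of these events with sequence and 54.7% in the 194 others. The lists were chosen with earlier results of these data known and membership was fixed by listing, so these counts are descriptions without a test. Genes with a constant event also had more events of other kinds, a mean of 6.61 non-retention events per library against 3.33 over all genes tested, and the part of this in the counts was not tested.

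**Figure D3:**
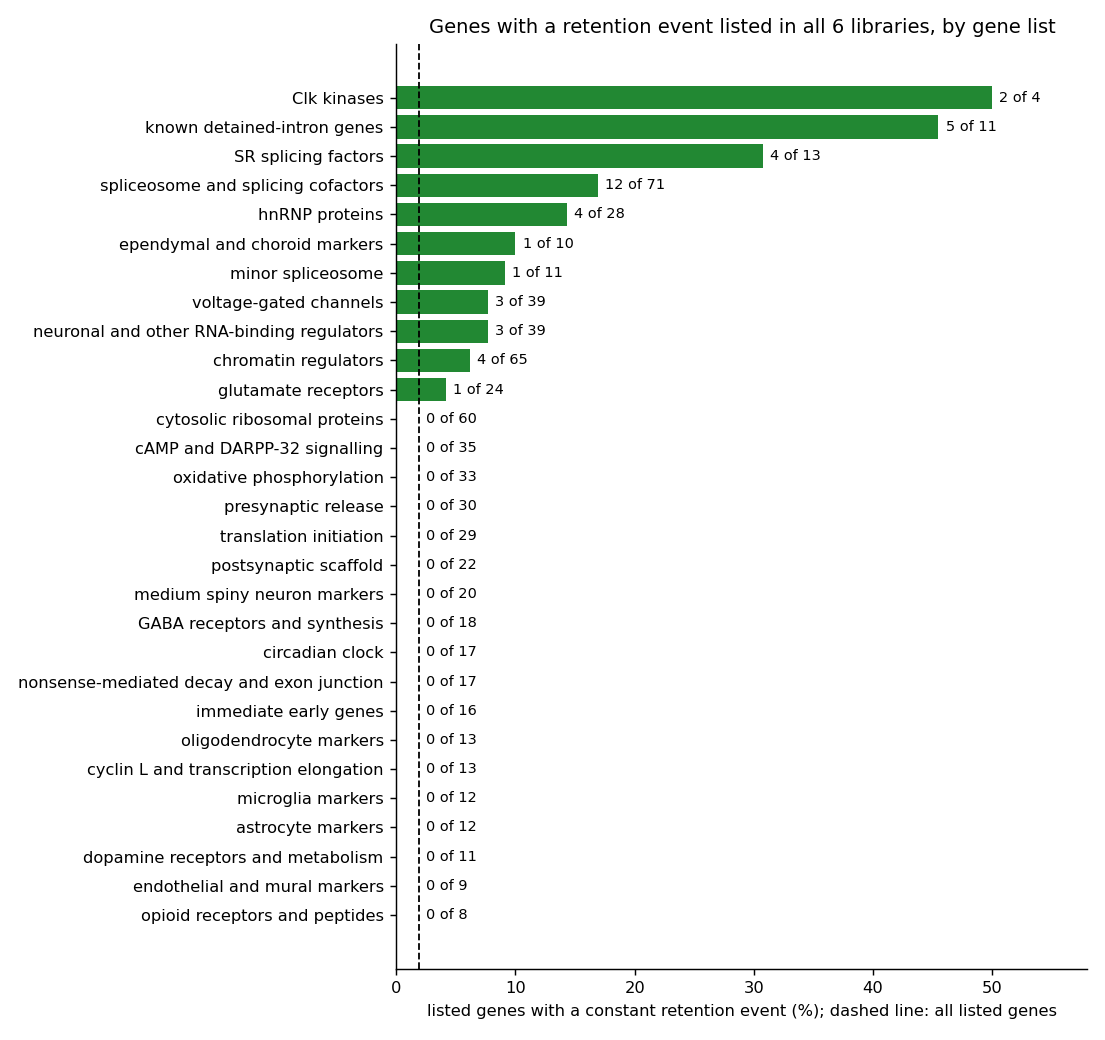
Bars give the percent of listed genes in each of 29 gene lists that hold a constant retention event, with the count beside each bar. The dashed line marks all listed genes at 1.93%. Clk kinases (2 of 4), known detained-intron genes (5 of 11) and SR splicing factors (4 of 13) stand highest, and 18 lists have none.

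The Clk kinases with a constant event were Clk1 and Clk4. In Clk1 the stretch chr1:58419733-58421083 kept introns 3 and 4 of 12 and the exon between them, 1258 intron bases in all, in an exon that GENCODE annotates as retained intron. In Clk4 the stretch chr11:51272022-51273560 was listed in 2 ways, as introns 3 and 4 with 1446 bases and as a single intron of 1537 bases that skips the exon between. The middle exon has 91 bases in both genes. The introns before it have 871 bases in Clk1 and 1055 in Clk4, and those after it 387 and 391. In both genes the frame met a stop 4 bases into intron 3. Clk1 is a textbook case of detained introns, and its kept pair is the one shown above by its splice sites.

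The SR proteins with constant events were Srsf5, Srsf7, Srsf9 and Srsf12. Srsf5 kept intron 5 of 7 (chr12:80947865-80949095, 1229 bases), with a stop 7 bases into the intron. Srsf7 kept intron 3 (chr17:80204387-80205262, 874 bases) and, as a separate event, intron 5 (chr17:80202744-80204122, 1377 bases). Srsf9 kept 1793 bases (chr5:115328704-115330498) and Srsf12 159 bases (chr4:33225868-33226028). Srsf12 thus had the only stretch under 300 bases among the 5 SR events.

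Among the hnRNP genes, Hnrnpl had 3 events over 2 introns, of 3108 bases (chr7:28815352-28818461) and 111 bases (chr7:28818532-28818644). Hnrnpm kept introns of 117 and 904 bases (chr17:33666529-33666647 and chr17:33669176-33670081). Hnrnph1 kept 2 introns with 2433 bases (chr11:50379964-50382537) and Hnrnpu 1 of 1855 bases (chr1:178334026-178335882). The short introns of Hnrnpl and Hnrnpm are inside annotated protein-coding exons and have no stop in frame, and the others are not in annotated protein-coding exons.

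The spliceosome and cofactor list had 12 of 71 listed genes with a constant event, which were Arglu1, Clasrp, Ddx39b, Ddx46, Prpf38b, Prpf39, Prpf4b, Rbm25, Rbm39, Rbm6, Rsrp1 and Sf3b1. Arglu1, a splicing cofactor rich in arginine and glutamate, kept intron 2 of 3 with 2280 bases (chr8:8681467-8683748). Clasrp, a partner of Clk kinases, kept 249 bases (chr7:19584530-19584780). Ddx39b, a helicase of splicing and messenger export, kept intron 6 of 10 with 2177 bases (chr17:35249069-35251247), and Ddx46, a helicase of early spliceosome assembly, intron 12 of 22 with 1618 bases (chr13:55659098-55660717). Clasrp alone of these 4 kept under 300 bases. In the minor spliceosome list 1 of 11 listed genes had a constant event, Snrnp48, with the GC intron of 3192 bases (chr13:38217495-38220688). Celf5, Fxr1 and Tial1, which encode RNA-binding proteins that regulate splicing or translation, kept 548, 87 and 334 bases.

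On the list of genes known for detained introns, 5 of 11 had a constant event, and 4 of these (Clk1, Clk4, Srsf5 and Srsf7) are named above. The fifth was Ogt, the enzyme that attaches N-acetylglucosamine to nuclear and cytoplasmic proteins, which kept intron 4 of 21 with 3415 bases (chrX:101652208-101655624). Ogt is also on the chromatin list, where Chd4, Hdac3 and Tet2 complete 4 of 65 listed genes. Tet2, which oxidises methylated cytosine, kept intron 6 of 10 with 3497 bases (chr3:133476635-133480133). Chd4 kept intron 26 of 38 with 84 bases (chr6:125120385-125120470), and Hdac3, a histone deacetylase, kept 377 bases.

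Among genes of neuronal signalling, constant events were listed in glutamate receptors and voltage-gated channels. Gria4, an AMPA receptor subunit, was the 1 of 24 glutamate receptor genes with one (4.17%, against 1.93% of all listed genes), and kept 2 introns (chr9:4424454-4456005). Of 39 voltage-gated channel genes, 3 had one (7.69%). Cacna1a, the pore of P/Q-type calcium channels, kept 980 bases (chr8:84536458-84537439), Cacna1d, the pore of an L-type channel, kept 1871 (chr14:30045336-30047208), and Scn3a, a sodium channel, kept 1528 (chr2:65524876-65526497). Ccdc39, a gene of motile cilia on the ependymal list, kept 499 bases (chr3:33830157-33830657) and was the 1 of 10 genes on that list with any retention event.

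No constant event was listed in the 8 opioid receptor and peptide genes, the 11 dopamine genes, the 20 medium spiny neuron markers, the 16 immediate early genes or the 35 genes of cAMP signalling. Nor was one in the 60 ribosomal protein genes or the 33 of oxidative phosphorylation. With 1.93% of all listed genes holding a constant event, any single list this short may hold none without standing apart from other genes. No opioid or ribosomal gene had any retention event in any library, and 4 of the 20 neuron markers had some. Of the 17 clock genes, 11 had some retention event and none a constant one, and of the 17 genes of nonsense-mediated decay and the exon junction, 10 had some, and 6.28% of all genes with some retention event had a constant one. Altogether 18 lists had no constant event. Together they held 375 listed genes, 90 of them with some retention event, where a gene on 2 lists counts for each. These lists were put together because they had none, and whether they differ from other genes was not tested.

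Several genes kept more than 1 stretch. There were 257 genes with 1 constant event, 40 with 2 and 11 with 3 or more. Tmem191c, which encodes a transmembrane protein, had 7 events on chromosome 16 between positions 17276757 and 17277528, over introns of 79 to 154 bases plus a pair with 228. Phf20l1, a reader of methylated lysine, had 5 and kept up to 8087 bases (chr15:66615847-66623992). Gtpbp6, a putative GTP-binding protein, had 4 within chr5:110106783-110107060. Donson, a replication factor, and Dus3l, a tRNA dihydrouridine synthase, had 3 each, as did 6 further genes. Events of 1 gene share transcripts and in part the same introns, so they are not independent members.

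Since membership fixed the constant events in every library, the groups were compared on the remaining events. Other retention events are those that the choice left out because not every library listed them. Their counts therefore come from the same listing that made the choice, and a count of 0 leaves out the constant event. Only the non-retention events played no part in the choice. The question was whether genes with a constant retained intron differed between morphine and saline in their other splicing events. Such other retention events numbered 1060, 660 and 663 in the saline libraries and 867, 856 and 906 in the morphine libraries. The groups overlapped through saline replicate 1 alone, the highest of all, while the other saline libraries lay below every morphine library. The mean was 794 ± 230.1 after saline and 876 ± 26.3 after morphine (SD, n = 3 each), and an exact two-sided permutation test gave p = 0.5, where 0.1 is the smallest p that 3 against 3 allows. Without saline replicate 1, the only library that made them overlap, the groups did not overlap. The difference of morphine minus saline then rose from 82 to 215 events (exact permutation p = 0.1, again the smallest possible). It was 14.8 without saline replicate 2 and 16.3 without saline replicate 3. Saline replicate 1 also listed the most retention events of its group over all genes, 7425. As a share of the other retention events of all genes the direction turned, with 14.5% ± 0.512 after saline and 13.4% ± 1.11 after morphine (SD, n = 3 each; exact permutation p = 0.2).

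Non-retention events (first exons, last exons, skipped exons and alternative exon ends) in the same genes numbered 2119, 1907 and 2052 after saline and 2045, 2050 and 2039 after morphine. The morphine libraries lay within the saline range. The means were 2026 ± 108 and 2045 ± 5.51 (SD, n = 3 each; exact permutation p = 1). Saline replicate 2 decided the sign: without it the saline mean was 2086 and morphine was lower by 40.8 events. The groups then did not overlap (exact permutation p = 0.1, the smallest possible). Their nearest values were 2052 in saline and 2050 in morphine. The difference of 18.7 events became 65.2 without saline replicate 1 and 31.7 without saline replicate 3.

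Other retention events that keep at least 1 of the constantly kept introns, with other boundaries or with neighbouring introns, numbered 211, 149 and 156 after saline and 189, 198 and 165 after morphine. Here too saline replicate 1 alone made the groups overlap, with means of 172 ± 34 and 184 ± 17.1 (SD, n = 3 each; exact permutation p = 0.7). Without it the difference rose from 12 to 31.5 events (exact permutation p = 0.2). It was 0.5 without saline replicate 2, 4 without saline replicate 3, 5 without morphine replicate 5 and 21.5 without morphine replicate 6. As a share of the other retention events of all genes they were 3.18% in saline and 2.81% in morphine, the opposite direction (exact permutation p = 0.3). Of the 377 constant events, 228 had such a companion in some library, 21 had one in every library and 149 had none.

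**Figure D4:**
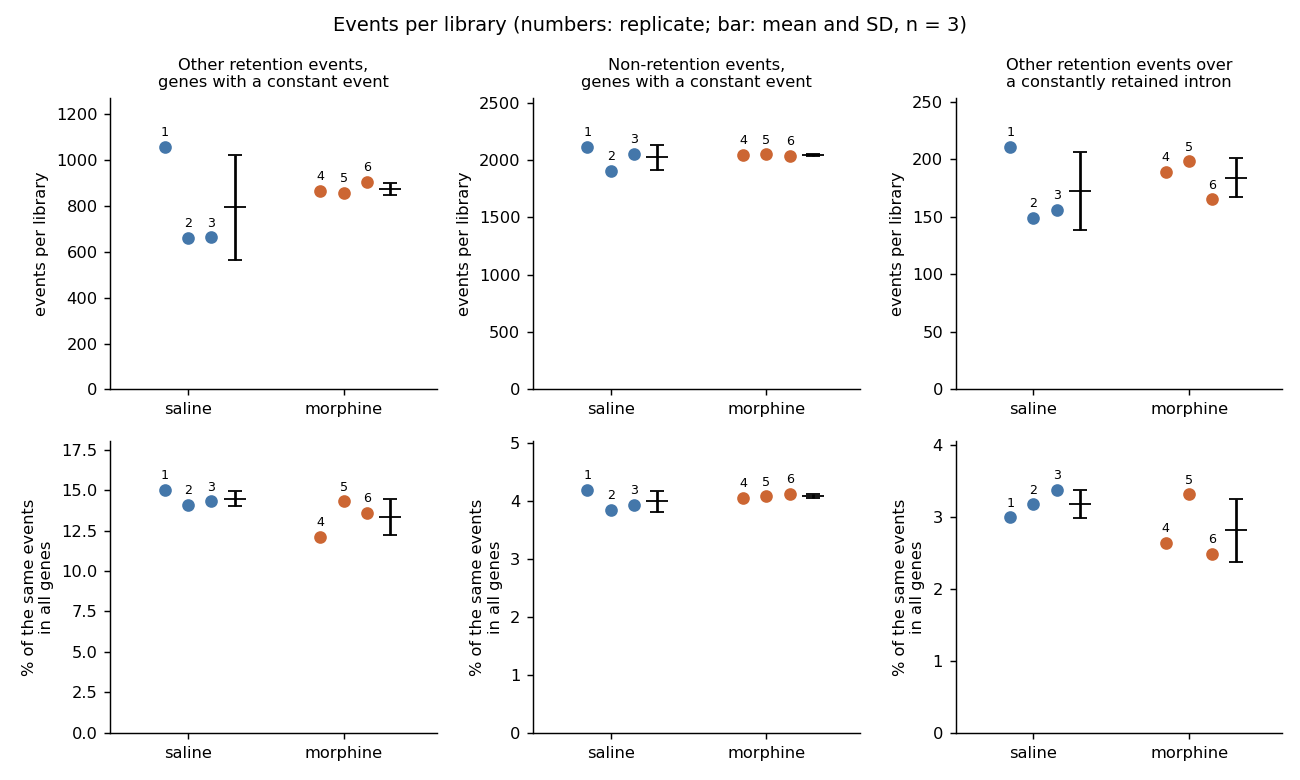
Points are libraries, labelled by replicate number, with saline in blue and morphine in orange, and black bars give the mean and SD (n = 3). The upper row counts events per library and the lower row gives them as a percent of the same kind of events in all genes. Saline replicate 1 stands highest for both kinds of retention events, at 1060 and 211, and in all panels of the upper row the groups overlap.

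The introns with the most companion events were in Hdhd5, with 3, 7 and 8 after saline and 6, 6 and 1 after morphine, and in Ppox, an enzyme of haem synthesis, with 4, 2 and 5 and then 7, 3 and 5. Tnrc6a, a component of microRNA silencing, had 4, 1 and 4 after saline and 7, 1 and 7 after morphine. Eml5, a microtubule-associated protein, had 4, 6 and 3 and then 3, 2 and 4, and Pkd1, the large membrane protein polycystin, had 4, 3 and 1 and then 7, 6 and 1. The groups overlapped in all 5. For Clk1 the companions numbered 2, 2 and 1 after saline and 1, 0 and 3 after morphine, and for the pair of introns in Clk4 1, 2 and 4 and then 0, 0 and 1. The Srsf5, Srsf7, Srsf9, Srsf12 and Ogt introns had no companion in any library. Transcript starts or ends inside a constantly kept stretch were rare, with 1 to 3 stretches of 363 holding a start and 1 to 4 an end in any library.

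Gene by gene, limma on log2(events + 0.5) called no gene with a constant event for other retention events at an adjusted p under 0.05. Of 2905 genes that reached a mean of 0.5 events, none was called (0%), and 227 of the 308 genes with a constant event were among them. At an unadjusted p under 0.05 there were 14 of these 227 (6.17%) and 181 of all tested genes (6.23%). The median log2 ratio of morphine to saline was 0.13 in the 227 and 0.25 in all tested genes, with a ratio above 0 in 56.4% of the 227 and 56.8% of all. The smallest adjusted p among the 227 was 0.373.

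The groups did not overlap in 17 of the 227 genes (7.49%), 12 higher and 5 lower in morphine, against 6.13% of all tested genes (4.78% higher and 1.34% lower), so the share was near the background. Leaving out any 1 library raised the 17 to between 27 and 35, as fewer libraries overlap less easily. The share over all tested genes was not counted with a library left out. Each of the genes named next has an exact permutation p of 0.1, the smallest possible, and no limma call.

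Higher in morphine without overlap was Tcea2, the gene with the AT and AC intron, with 1, 0 and 1 other retention events in saline and 2, 7 and 5 in morphine (log2 ratio 2.17, SE 0.75, limma adjusted p = 0.577). Myef2, a repressor of myelin gene transcription, had 9, 1 and 2 after saline and 10, 10 and 19 after morphine, a gap of 1 event between the groups. Celf5 had 2, 0 and 0 and then 3, 5 and 3, and Dennd6b, a guanine nucleotide exchange factor, had 2, 0 and 1 and then 4, 3 and 5. Chuk, a kinase of the NF-kappaB pathway, was listed at 0 in all saline libraries and at 8, 1 and 2 in morphine. Brd8, a bromodomain protein, and Ttc13 were listed at 0 in saline and at 1, 2 and 1 in morphine. Gnptg, a subunit of a lysosomal targeting enzyme, had 1, 1 and 0 and then 3, 5 and 2. Apart from Myef2, none of these 8 genes had over 8 such events in any library.

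Lower in morphine without overlap was Ciz1, a nuclear zinc finger protein, with 1, 5 and 4 events in saline and 0 in every morphine library. Taf4, a subunit of the general transcription factor TFIID, had 3, 1 and 4 after saline and 0 after morphine, and Plekhj1 had 1 per saline library and 0 after morphine. Fahd2a had 2, 2 and 4 and then 1, 1 and 0. Ccdc39 had 4, 8 and 6 after saline and 2, 2 and 3 after morphine (log2 ratio -1.17, SE 0.52, limma adjusted p = 0.577). These are counts of listed structures from bulk tissue of unknown read depth. Fewer cells of a type, less RNA per cell and a difference in depth cannot be told apart, and none was tested.

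The splicing kinases showed no separation of the groups. Clk1 had 3, 3 and 4 other retention events in saline and 1, 0 and 4 in morphine (log2 ratio -1.34, SE 0.87, limma adjusted p = 0.753). Clk4 had 1, 7 and 8 after saline and 2, 0 and 2 after morphine (log2 ratio -1.65, SE 1, limma adjusted p = 0.671). For both, the morphine values overlapped the saline values, in Clk4 through the single event of saline replicate 1. Srsf7, Srsf12, Ogt, Arglu1 and Sf3b1 had no other retention event in any library, and Srsf5 had 1, in saline replicate 2.

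Celf5, named above, was separated, but the groups overlapped in the RNA-processing genes given next. Hnrnph1 had 0, 1 and 0 other retention events after saline and 1, 2 and 3 after morphine (log2 ratio 1.71, SE 0.70, limma adjusted p = 0.577), a tie at 1 event. Hnrnpm had 3, 0 and 1 and then 2, 4 and 3, and Snrnp48 had 5, 1 and 7 and then 1, 3 and 5. Fxr1 had 2, 7 and 0 and then 4, 2 and 8, and Tial1 3, 0 and 12 and then 1, 1 and 11, so that single libraries of 1 group differed more than the groups did. Neither Chd4 nor Hdac3 had over 1 such event in any library, while Tet2 had 3, 8 and 6 and then 8, 3 and 12.

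The groups also overlapped in the 4 receptor and channel genes with a constant event. Scn3a had 24, 2 and 12 after saline and 2, 8 and 3 after morphine, the widest saline spread among these genes (log2 ratio -1.12, SE 0.95, limma adjusted p = 0.848). Cacna1a had 14, 10 and 4 and then 4, 9 and 12, and Cacna1d had 7, 0 and 5 and then 10, 10 and 4. Gria4, with the longest kept stretch, had 3, 2 and 2 and then 3, 1 and 4. Of the genes with the most constant events, Phf20l1 had 29, 16 and 21 and then 27, 11 and 10, Gtpbp6 had 9, 8 and 3 and then 2, 0 and 4, and Tmem191c had at most 1 in any library. In Donson the other retention events were listed at 0 in all saline libraries and at 3, 2 and 0 in morphine.

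For non-retention events all 308 genes with a constant event were tested by limma and none was called, against 0.672% of all 15040 tested genes, or 0.0399% when only genes with counts that vary within a group are taken. At an unadjusted p under 0.05 there were 13 of the 308 (4.22%) and 437 of all (2.91%). The median log2 ratio was 0.00 in both sets. Leaving out a library brought calls among the 308 in 5 of 6 cases: 4 without saline replicate 1, 1 without saline replicate 2, 4 without saline replicate 3, 3 without morphine replicate 4 and 2 without morphine replicate 6. Among the genes named next, Ddx39b was called without saline replicate 1, and Ints6l and Carmil3 without saline replicate 3. In those runs the counts left for Ddx39b (5 and 5, then 3 throughout) and Carmil3 (3 and 3, then 6 throughout) had no spread within a group. Calls over all genes were not counted with a library left out.

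The groups did not overlap in 14 of the 308 genes (4.55%), 7 higher and 7 lower in morphine, against 2.49% of all tested genes (1.17% higher and 1.32% lower). The 2 shares are not alike in their base: 25.1% of all tested genes had the same count in every library and so could not separate, against 6.49% of the genes with a constant event. The 14 became 31 with events scaled to equal library totals, which makes equal counts unequal, and 29 to 37 with any 1 library left out. The share over all tested genes was not counted in these settings, so these counts have no background beside them.

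Ints6l, a relative of an Integrator complex subunit, had 5, 6 and 9 non-retention events in saline and 13, 15 and 15 in morphine (log2 ratio 1.09, SE 0.23, limma adjusted p = 0.643). It is also among the 17 genes above, with other retention events of 0, 3 and 3 and then 4, 6 and 6. Carmil3, a regulator of actin capping, had 3, 3 and 4 and then 6, 6 and 6 (log2 ratio 0.77, SE 0.12), with the smallest limma adjusted p of the 308 genes, 0.254. Rgs11, whose 65-base intron is shown above, had 10, 11 and 7 after saline and 14, 28 and 14 after morphine. Donson had 4, 5 and 4 and then 9, 9 and 6. Thoc1, of the messenger export complex THO, had 3, 2 and 4 and then 6, 5 and 5. Tbce, a tubulin folding cofactor, had 7, 5 and 5 and then 10, 8 and 8, and Agrn, the synapse organiser agrin, had 8, 10 and 11 and then 12, 17 and 13.

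Lower in morphine were Tubgcp6, of the gamma-tubulin complex, with 8, 6 and 16 events in saline and 3, 2 and 5 in morphine (log2 ratio -1.41), and Gtpbp6, with 18, 11 and 9 and then 4, 4 and 7 (log2 ratio -1.24). Mdm4, an inhibitor of p53 whose constant event keeps 5178 bases of introns 6 and 7 (chr1:133003890-133009137), had 11, 11 and 14 after saline and 8, 8 and 4 after morphine. Ddx39b had 7, 5 and 5 after saline and 3 in every morphine library (log2 ratio -0.80, SE 0.14, limma adjusted p = 0.414). Mief2, a receptor of the mitochondrial fission machinery, had 4, 4 and 7 and then 2, 3 and 2, and Rad52, a DNA repair protein, had 11, 11 and 13 and then 8, 6 and 8. Taf4 was lower here too, with 8, 8 and 9 and then 6, 7 and 5.

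Some genes with constant events (6.49%, against 25.1% of all tested genes) had the same number of non-retention events in every library. Arglu1 and Hdac3 had 2 each, the lowest count among genes with a constant event, Ogt had 5 and Tmem191c had 6 in all 6 libraries. Srsf9 had 11 in 5 libraries and 13 in morphine replicate 6. Clk4 varied more, with 7, 16 and 14 after saline and 8, 4 and 9 after morphine (log2 ratio -0.77, SE 0.46, limma adjusted p = 0.912), and Clk1 had 2, 2 and 5 and then 2 throughout. Srsf5 had 4, 11 and 4 and then 6, 6 and 4, and Srsf7 had 8, 2 and 3 and then 6, 5 and 5. For Srsf5, Srsf7 and Clk4 the groups overlapped.

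**Figure D5:**
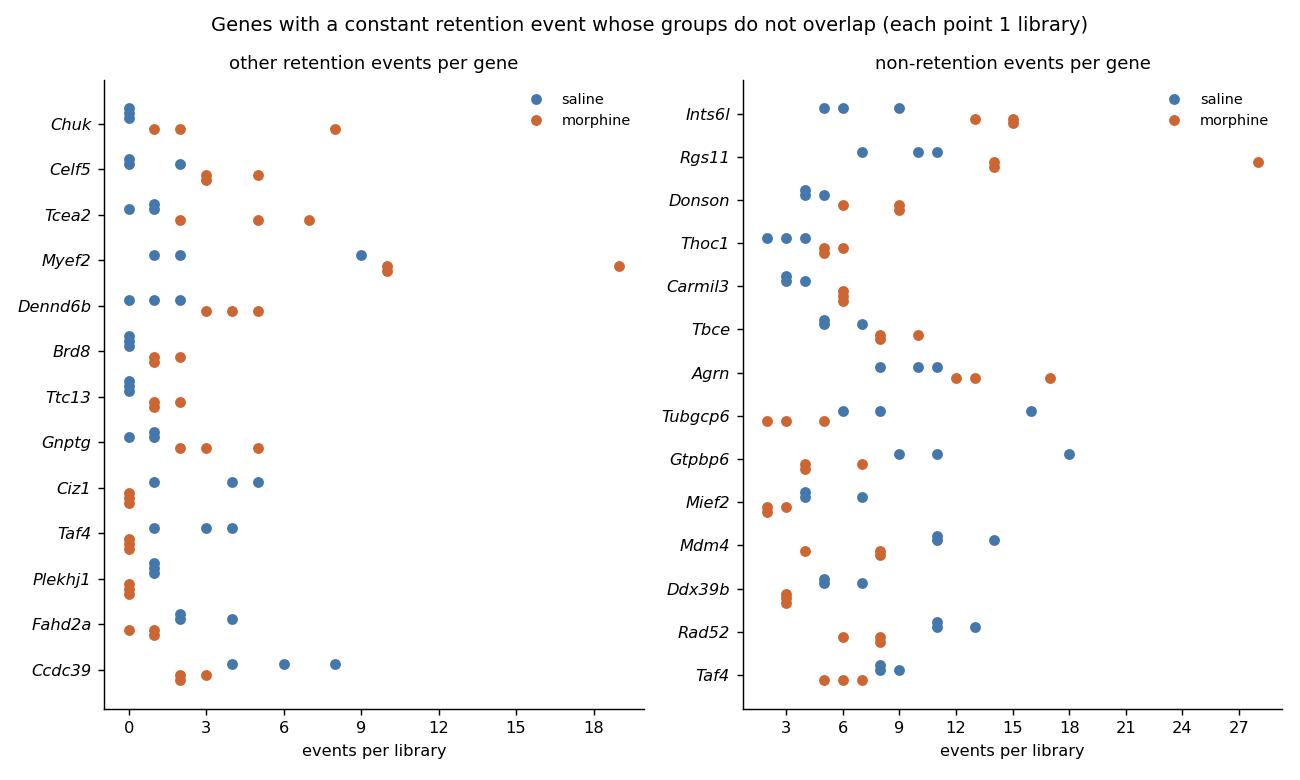
Each point is the number of events in 1 library (x axis), saline in blue and morphine in orange, for genes with a constant retention event whose groups do not overlap, up to 8 per direction. The left panel shows other retention events, with most genes under 10 events, and the right panel non-retention events. Taf4 is in both panels and lower in morphine in each.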

How the data were processed

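RNA of nucleus accumbens from 3 saline and 3 morphine libraries was sequenced by the authors, who deposited 1 catalogue of transcription and splicing events per sample. Aligner, assembler, event caller, genome build and sequencing depth were not given in the sources used here, so no interval or detection limit was computed. Per the file headers, each row holds a type code, an Ensembl gene ID, a chromosome, start, end, boundary pattern and strand. The deposited column headed fpkm holds a score of whole numbers at or below 0 and was not used. Because no expression values were used, the measure is the number of distinct events.

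Retention events were compared with GENCODE M21 (GRCm38), whose exon boundaries the coordinates match. The annotation supplied symbols, introns, reading frames and, through its transcripts, sequence for 211 of the 377 events. The introns kept are those between the exons of the spliced partner in the next row. Only ON codes were counted.

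Groups were compared with limma 3.58.1 in R 4.3.3 (lmFit, eBayes with trend, Benjamini-Hochberg adjustment) on log2(events + 0.5) for genes with a mean of at least 0.5, and with exact two-sided permutation tests of library sums. Constant events were left out of the retention counts tested. The limma steps were tested on simulated data. Tables and figures were made with Python 3.11.15, pandas 2.3.3, numpy 2.4.6 and matplotlib 3.10.9.

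The events and gene lists were chosen with earlier results of these data known. Named were all constant events in the lists of Clk kinases, SR proteins, minor spliceosome, detained introns and neuronal receptors, and up to 4 genes of each other list by alphabet. The 5 genes with the most events, the 5 longest and 5 shortest stretches, introns with TATCCTT, up to 8 non-overlapping genes per direction and measure, and the 5 introns with the most companion events were added. Brd9, Braf, Adgrl1, Tro, Zfp748, 2010300C02Rik, Tnpo2 and the remaining cofactor genes were named after their values were seen.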

Additional observations from a re-analysis of the deposited data

How the results depend on the processing

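The number of constant events was 870 when listing in 5 libraries sufficed. It was 441 when type codes and outer ends were ignored, 351 with IR_ON and MIR_ON alone, 361 with annotated introns alone, and 435 to 486 when 1 library was left out. Expressed as a share of the same events in all genes, the difference of morphine minus saline turned to -1.11 percentage points for other retention events and to -0.365 for companion events. With 1 library left out, the difference ranged from 14.8 to 215 for other retention events, from 0.5 to 31.5 for companion events and from -40.8 to 65.2 for non-retention events, in each case highest without saline replicate 1 and lowest without saline replicate 2. Non-overlapping genes with a constant event then numbered 27 to 35 for other retention events, and 29 to 37 for non-retention events. The latter had 31 with equal library totals. No count over all genes stands beside these. Limma calls among genes with a constant event stayed at 0 for other retention events in every alternative run. They were 0 to 4 for non-retention events with 1 library left out, and included genes with no spread within a group. The causes of these changes were not tested. Of the single-gene values, 340 kept their direction and side of the threshold, 3 newly passed it and 0 reversed. No paired analysis was possible because the groups share no replicate number. With unknown depth, an unlisted event cannot be told apart from one below detection, and only 3 libraries per group limit every comparison.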
